A study of Mus musculus with 16 samples.

Results

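Receptors for vasoactive peptides and amines let a cell read the signals that set vascular tone. The 9 genes described here encode such receptors, apart from P2ry6, and were measured in the connective tissue cells of muscle. They are Adra1a, Agtr1a, Bdkrb1, Bdkrb2, Aplnr, Ednra, Ednrb, Npr3 and P2ry6, taken by symbol from a table of 52997 genes, and all 9 symbols were present. P2ry6 responds to a nucleotide, so it is neither a peptide nor an amine receptor. The symbols were listed with results of these libraries known, among them differences at 4 h of Adra1a, P2ry6, Bdkrb1 and Agtr1a, and whether values at 8 h also guided the choice is not recorded. For these 9 genes the 4 h comparison, and each comparison between times, which uses the same 4 h libraries, is therefore a description. Genes that passed a threshold, adjusted over all genes, are counted in the main fit or an alternative. No p is printed for these comparisons and nothing is read from the counts. Mesenchymal stromal cells (mSC) were sorted from hindlimb muscle of C57BL/6 mice aged 8 weeks, with no genetic change named in the labels. The mice had been injected intraperitoneally with CGRP, a vasodilator peptide of sensory nerves, or with phosphate-buffered saline (PBS), and cells were isolated after 4 h or 8 h. Each of the 4 groups (PBS 4 h, CGRP 4 h, PBS 8 h, CGRP 8 h) held 4 libraries, which the submitters call biological replicates, and the labels do not say how many mice each library came from.

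Most of these receptors are coupled to G proteins. The alpha-1A adrenergic, angiotensin, bradykinin, endothelin A and UDP receptors act mainly through Gq, which raises calcium in the cell, and in smooth muscle most of these signals constrict the vessel. CGRP acts through Gs and cyclic AMP and relaxes it. Npr3 is of another kind: it binds natriuretic peptides, has no cyclase domain and removes its ligands from the fluid around the cell.

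The libraries held 6373713 to 10011920 gene counts, so that 1 read stood for 0.101 to 0.152 CPM (counts scaled to library size with TMM). The 12 stromal markers were all present in each group and summed to 44228 to 71630 CPM per library, whereas 12 macrophage and myeloid markers summed to at most 25.5 CPM. Some libraries stood apart. The number of genes detected was 23294 to 25579 in PBS 4 h replicate 4, CGRP 4 h replicate 3, PBS 8 h replicate 1 and PBS 8 h replicate 4. The remaining libraries had 21138 to 22341. PBS 8 h replicates 1, 2 and 3 gave 1.77% to 2.45% of their reads to Gm10800, a model made of repeats, and no other library gave it over 1.01%. In all, 8 of the 9 genes passed the filter on low counts (edgeR's filterByExpr) among 13949 tested genes, and each of these 8 also passed it on the PBS libraries alone. Ednrb did not pass.

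The receptors differed widely in level. Per kilobase of exon, Agtr1a stood highest after PBS at 4 h at 42.7 ± 5.25 CPM (mean ± SD, n = 4), followed by Ednra at 7.34 ± 2.33 and P2ry6 at 6.27 ± 0.323. Aplnr (1.31 ± 0.316), Bdkrb1 (1.00 ± 0.560), Bdkrb2 (0.920 ± 0.204) and Adra1a (0.707 ± 0.295) formed a lower tier on that scale, and Npr3 (0.195 ± 0.109) and Ednrb (0.0607 ± 0.0504) were lowest. Ranges of neighbours in this order did not overlap between Agtr1a and Ednra, P2ry6 and Aplnr, or Adra1a and Npr3, and overlapped in the other neighbouring pairs. After CGRP at 4 h the order per kilobase was Agtr1a, Ednra, Bdkrb1, Bdkrb2, P2ry6, Npr3, Aplnr, Adra1a and Ednrb. Bdkrb1 then stood at 4.29 ± 1.59 CPM per kilobase and Adra1a at 0.167 ± 0.0416. After CGRP at 8 h P2ry6 was the third in order again at 4.50 ± 1.93 CPM per kilobase, and its range overlapped those of Ednra and Bdkrb1. Agtr1a ranked first and Ednra second in all 4 groups.

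**Figure D1:**
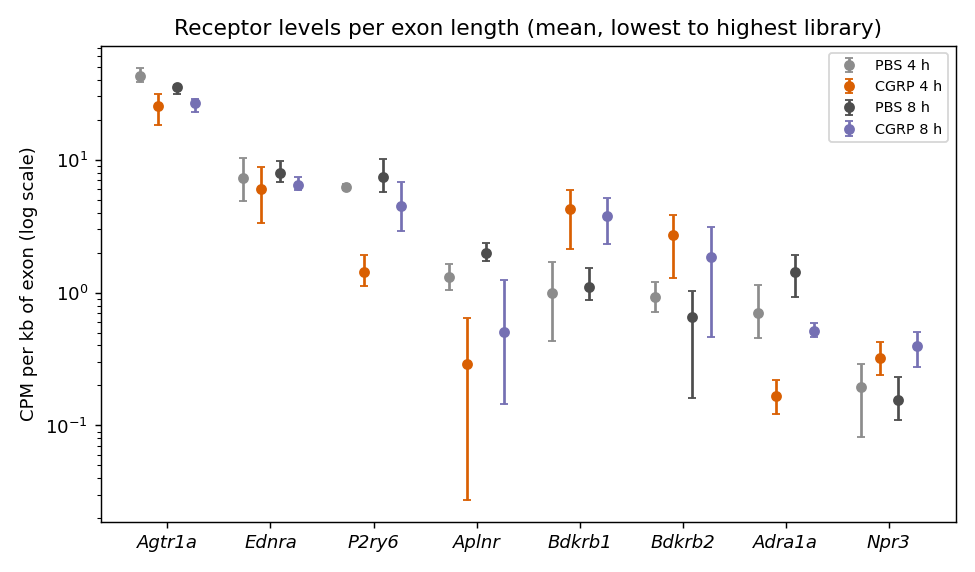
Level of 8 receptor transcripts in CPM per kilobase of exon (log axis), with the mean of 4 libraries as a point and a bar from the lowest to the highest library in each of the 4 groups; Ednrb, with many zero counts, is left out. Agtr1a lies above the other receptors in every group, and Adra1a, P2ry6 and Aplnr have their lowest points after CGRP at 4 h.

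Of the 8 tested receptors, 6 differed between CGRP and PBS at 4 h at an adjusted p under 0.05 in edgeR's quasi-likelihood fit over all genes, 4 lower and 2 higher, against 16.2% of all tested genes (8.37% lower and 7.84% higher). Their libraries did not overlap between the groups in 6 of 8 cases, against 18.9% of all tested genes. The genes were chosen partly on this comparison, so these counts carry no weight of their own. At 8 h, in other libraries, 4 of 8 were called, against 8.67% of all tested genes: 2 rose and 2 fell, against 5.00% and 3.67%, and 5 of 8 did not overlap, against 14.8%. Whether 8 h values guided the choice is not recorded, so the 8 h counts are not independent support. The median log2 fold change of all tested genes was -0.00 at 4 h and -0.02 at 8 h. Log2 fold changes are of CGRP over PBS and their errors are SE. Replicates are given in the order 1 to 4. With 1 library left out, 577 to 1297 genes were called in all at 8 h, and 191 without the 4 libraries with many genes detected. DESeq2, no filter and a fit on the 8 libraries of that time called 1533, 1356 and 1225 genes in all, and 6, 6 and 5 receptors. The number of receptors called at 8 h was 2 to 6 when 1 library was left out. It was 0 without the 4 libraries with many genes detected, and 0 without PBS 8 h replicates 1, 2 and 3.

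**Figure D2:**
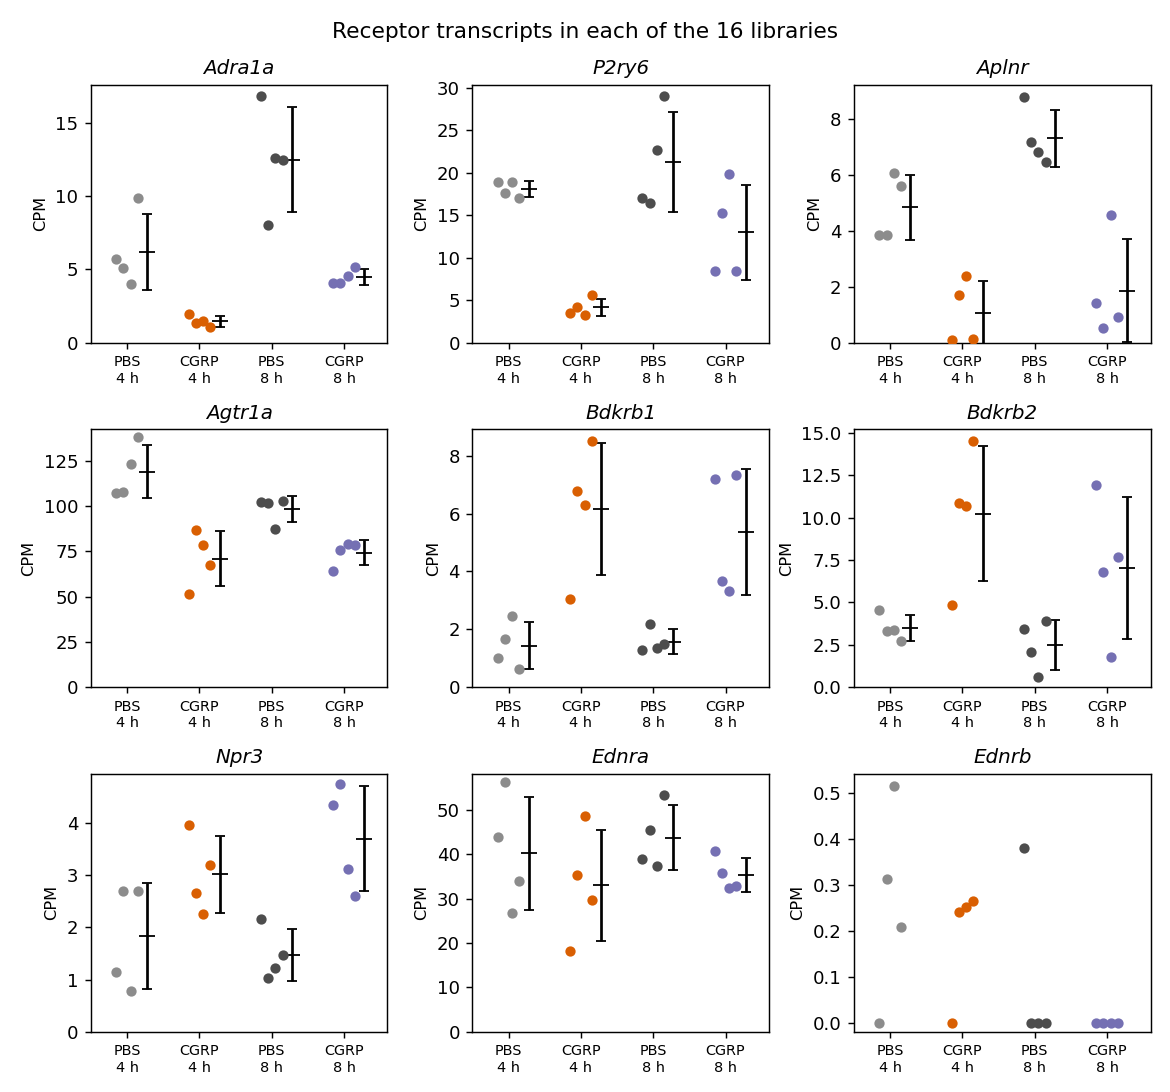
CPM of each receptor in each of the 16 libraries (points, replicates 1 to 4 from left to right), with the group mean and SD (n = 4) beside them; bars are cut at 0, and Ednrb has no mean drawn because most of its counts are 0. Adra1a after CGRP at 8 h (4.04 to 5.20 CPM) lies between the CGRP 4 h level and the PBS 8 h level, and Bdkrb1 is above its PBS libraries at both times.

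Among the amine receptors, Adra1a, the alpha-1A adrenergic receptor that binds noradrenaline and adrenaline, was much lower after CGRP. The gene lies on chromosome 14 at 66635251 to 66771168 (mm10, GENCODE M21, forward strand). Its levels after PBS at 4 h were 5.70, 5.10, 4.00 and 9.89 CPM, and after CGRP they were 1.93, 1.33, 1.51 and 1.06 CPM. Every CGRP library lay below every PBS library, and the log2 fold change was -2.06 ± 0.32. The counts behind the CGRP values were 8 to 19 reads per library. At 8 h the levels were 16.8, 8.05, 12.6 and 12.5 CPM after PBS and 4.04, 4.10, 4.58 and 5.20 CPM after CGRP. The groups again did not overlap, and Adra1a fell (log2 fold change -1.48 ± 0.28, adjusted p = 0.00217, edgeR). This call held with each single library left out (-1.64 to -1.30). It was lost without the 4 libraries with many genes detected (-1.20, adjusted p = 0.0617) and without PBS 8 h replicates 1, 2 and 3 (-1.47, adjusted p = 0.0994).

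Adra1a levels at the 2 times are set side by side as values. After CGRP it stood at 1.46 ± 0.364 CPM at 4 h and 4.48 ± 0.537 CPM at 8 h (log2 difference 1.59 ± 0.32), measured from the low 4 h libraries that were known when it was chosen. After PBS it stood at 6.17 ± 2.58 CPM at 4 h and 12.5 ± 3.57 CPM at 8 h (1.01 ± 0.27). This difference was not called by edgeR and was called by DESeq2, and by edgeR without PBS 4 h replicate 4, the highest library at that time (1.34), or without PBS 8 h replicate 2 (1.18). The effect of CGRP at 8 h minus that at 4 h was 0.58 ± 0.42. A higher level at 8 h was thus measured in both arms.

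Summed markers of pericytes and smooth muscle, cells that also carry adrenergic receptors, were lower after CGRP at 4 h, as Adra1a was. They summed to 136 to 185 CPM after PBS and 92.9 to 110 CPM after CGRP at 4 h, and to 163 to 219 and 145 to 211 CPM at 8 h, with none of 12 at 0 in any group. Group means were lower after CGRP for 9 of the 12 markers at 4 h and 6 of 12 at 8 h. Such counts were not particular to this list: stromal markers gave 9 of 12 at both times, and myeloid markers 11 of 12 at 4 h and 5 of 12 at 8 h. Cspg4 carried much of the sum (79.8 CPM after PBS and 34.9 after CGRP at 4 h). Des, the next largest part, stood at 54.2 and 49.9 CPM at 4 h and 52.7 and 55.6 CPM at 8 h. Kcnj8 was higher after CGRP at both times (4.26 and 5.83 CPM, then 3.96 and 4.36 CPM). Acta2 was lower at 4 h (5.64 and 3.62 CPM) and higher at 8 h (3.86 and 5.69 CPM). Myh11 stood at 2.28 and 0.373 CPM at 4 h and at 0.960 and 1.22 CPM at 8 h, below Adra1a in each group. Abcc9 (6.84 and 3.69 CPM at 4 h, 8.50 and 3.80 CPM at 8 h) and Notch3 (5.23 and 3.50 CPM at 4 h, 13.1 and 7.35 CPM at 8 h) were lower after CGRP at both times, while Rgs5 was at most 0.500 CPM in any group. Their part in the result was not tested. In sorted bulk samples, fewer cells that express a gene and less RNA per cell cannot be told apart.

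The nucleotide receptor P2ry6, which responds to extracellular UDP, was low after CGRP at 4 h and less so at 8 h. It lies on the reverse strand of chromosome 7 at 100937630 to 100974649, where the model Gm44545 overlaps it on the other strand. After PBS at 4 h its levels were 19.0, 17.6, 18.8 and 17.1 CPM, a narrow group, and after CGRP they were 3.55, 4.23, 3.27 and 5.59 CPM. The groups lay far apart, with a log2 fold change of -2.13 ± 0.27. At 8 h the levels were 17.0, 16.4, 22.6 and 29.0 CPM after PBS and 8.49, 15.3, 19.8 and 8.41 CPM after CGRP. CGRP 8 h replicate 3 lay above PBS replicates 1 and 2, so the groups overlapped, and the difference did not pass the test (-0.70 ± 0.24, adjusted p = 0.0726). Without that library the log2 fold change was -0.96 with adjusted p = 0.0120. Between 4 h and 8 h after CGRP the log2 difference of P2ry6 was 1.66 ± 0.27, and the effect at 8 h minus the effect at 4 h was 1.42 ± 0.36. Both are measured from the low CGRP 4 h libraries that were known when P2ry6 was chosen. The second was not called by edgeR and was called by DESeq2, and by edgeR without CGRP 4 h replicate 4, CGRP 8 h replicate 1, CGRP 8 h replicate 4 or PBS 8 h replicate 4 (1.57 to 1.61). Across the 8 tested receptors edgeR called 0 such differences between times, against 1.12% of all tested genes. DESeq2 called 1, among 425 genes in all.

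Of the peptide receptors that were lower after CGRP, Agtr1a was by far the most abundant. It encodes the type 1 angiotensin receptor, through which angiotensin II constricts vessels and acts on fibroblasts. The gene lies on the forward strand of chromosome 13 at 30336441 to 30382867, with the sense intronic model Gm48161 inside it. At 4 h its levels were 107, 108, 123 and 138 CPM after PBS and 51.2, 86.7, 78.4 and 67.6 CPM after CGRP, groups that did not overlap (-0.75 ± 0.13). At 8 h they were 102, 101, 87.5 and 103 CPM after PBS and 63.9, 75.7, 79.3 and 78.5 CPM after CGRP, again without overlap. Agtr1a fell at 8 h by a small margin (-0.41 ± 0.13, adjusted p = 0.0482). The call rested on most of the libraries: it was lost when any 1 was left out except CGRP 4 h replicates 1 and 2 and PBS 4 h replicate 4 (-0.45 to -0.34, adjusted p = 0.0513 to 0.176). It was also lost with RLE scaling (-0.40, adjusted p = 0.0537). The near-identical paralog Agtr1b, with which reads could be shared, held 3 counts over all 16 libraries.

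Aplnr, the receptor of apelin and elabela, was low in number and variable after CGRP. It lies on the forward strand of chromosome 2 at 85136225 to 85139923. At 4 h its levels were 3.85, 3.85, 6.07 and 5.62 CPM after PBS and 0.102, 1.69, 2.39 and 0.133 CPM after CGRP. CGRP replicates 1 and 4 held 1 read each, and the other CGRP libraries 14 and 19. The log2 fold change was -2.18 ± 0.65. At 8 h the levels were 8.78, 7.18, 6.84 and 6.45 CPM after PBS and 1.42, 0.539, 4.58 and 0.918 CPM after CGRP. The groups did not overlap at either time, and at 8 h the difference lay just outside the threshold (-1.94 ± 0.60, adjusted p = 0.0523 by edgeR and 0.0165 by DESeq2). It passed in a fit on the 8 libraries of that time (adjusted p = 0.0164), with upper-quartile scaling (0.0499) and with no filter (5.16e-05). Without CGRP 8 h replicate 3, the highest CGRP library, it was -2.88 with adjusted p = 0.00427, and without CGRP 4 h replicate 1, 3 or 4 the adjusted p was 0.0234 to 0.0351. At 4 h the threshold was missed without CGRP 4 h replicate 1 or 4 or PBS 4 h replicate 3 or 4 (-2.09 to -1.75).

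Aplnr is also a gene of endothelial cells, so endothelial markers are given beside it. At 4 h the 12 markers summed to 84.1 to 145 CPM after PBS and 96.8 to 121 CPM after CGRP, and at 8 h to 110.2 to 133 and 82.3 to 109.7 CPM. Group means were lower after CGRP for 7 of the 12 markers at 4 h and for 7 at 8 h. Tek carried most of this sum, with group means of 90.6 to 119 CPM, while the defining marker Cdh5 had group means of 0.104 to 0.258 CPM. Cldn5 was at 0 in all CGRP 8 h libraries, but it stood at only 0.137 CPM after PBS at 8 h and was at 0 in 10 libraries of the series. Pecam1 (0.414 CPM after PBS and 0.690 after CGRP) and Flt1 (0.998 and 1.64 CPM) were among the markers higher after CGRP at 8 h. Summed myofibre markers were likewise lower at 8 h, 119 to 166 CPM after CGRP and 175 to 275 CPM after PBS. The part of either list in the Aplnr result was not tested.

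The bradykinin receptor genes were higher after CGRP. Bdkrb2 encodes the B2 receptor, which most tissues carry and which binds bradykinin itself, and Bdkrb1 encodes the B1 receptor, which binds kinins that have lost their last arginine and is known as inducible in injured and inflamed tissue. Both lie on the forward strand of mouse chromosome 12 in the same annotation, Bdkrb2 at 105563226 to 105595237 and Bdkrb1 at 105603085 to 105605428, with 7.85 kb between them. No other annotated gene overlaps either one.

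Bdkrb1 at 4 h stood at 0.997, 1.66, 2.45 and 0.625 CPM after PBS and at 3.05, 6.77, 6.28 and 8.51 CPM after CGRP. The lowest CGRP library, replicate 1, was above the highest PBS library, and the log2 fold change was 2.09 ± 0.41. At 8 h the levels were 1.27, 2.20, 1.37 and 1.48 CPM after PBS and 7.18, 3.67, 3.33 and 7.34 CPM after CGRP. The groups did not overlap, and Bdkrb1 rose (1.76 ± 0.42, adjusted p = 0.0107). The PBS counts were low, 6 to 19 reads per library over both times. The call at 8 h held with each single library left out (adjusted p = 0.00591 to 0.0475). It was lost without the 4 libraries with many genes detected (1.58, adjusted p = 0.145) and without PBS 8 h replicates 1, 2 and 3 (1.86, adjusted p = 0.270).

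Bdkrb2 at 4 h stood at 4.56, 3.33, 3.36 and 2.71 CPM after PBS and at 4.87, 10.9, 10.7 and 14.5 CPM after CGRP. CGRP replicate 1 lay barely above PBS replicate 1, as it was also the lowest CGRP library for Bdkrb1, and the log2 fold change was 1.55 ± 0.47. Its call was lost without any 1 PBS 4 h library or CGRP 4 h replicate 2, 3 or 4 (1.35 to 1.71). At 8 h the levels were 3.44, 2.05, 0.608 and 3.90 CPM after PBS and 11.9, 6.79, 1.77 and 7.65 CPM after CGRP. Replicate 3 was the lowest library of each group at 8 h, the groups overlapped, and the difference did not pass the test (1.47 ± 0.50, adjusted p = 0.0771 by edgeR and 0.0254 by DESeq2). Without CGRP 8 h replicate 3 it was 1.81 with adjusted p = 0.00769. Over the 16 libraries the log2 CPM of Bdkrb1 and Bdkrb2 had a Pearson r of 0.73, a value that the group differences share in.

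Npr3, the clearance receptor of natriuretic peptides, was the other gene that rose at 8 h. It lies on the reverse strand of chromosome 15 at 11839896 to 11907287 and is overlapped by the antisense Gm5144. At 4 h its levels were 1.14, 2.70, 0.775 and 2.71 CPM after PBS and 3.96, 2.66, 2.26 and 3.19 CPM after CGRP, with overlap and no call (0.69 ± 0.40). At 8 h they were 2.16, 1.03, 1.22 and 1.48 CPM after PBS and 4.35, 4.74, 3.12 and 2.60 CPM after CGRP, without overlap (1.32 ± 0.41, adjusted p = 0.0474). The 8 h call was lost without any 1 of CGRP 8 h replicates 1, 2 or 4, PBS 8 h replicates 2, 3 or 4, or CGRP 4 h replicates 2 or 4 (1.19 to 1.46, adjusted p = 0.0526 to 0.129), with upper-quartile scaling (adjusted p = 0.0562) and with no filter (adjusted p = 0.0717).

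The promoters of Bdkrb2 and Npr3 are shown because these genes stood higher after CGRP, whose receptor signals through cyclic AMP, and that of Ednra because it was not called. Of the 9 genes, 4 had an entry in the RefSeq promoter table (GRCm38.p6, the assembly of mm10). Windows run from 250 bases before to 50 bases after the start in that table, and positions are counted from that start. For Bdkrb2 and Npr3 it differs from the GENCODE M21 start given above, and both windows lie wholly upstream of the GENCODE gene. The motifs searched on both strands were the cyclic AMP response element TGACGTCA, its short core TGACG, which the full element contains, and the AP-1 site TGANTCA. A match to the full element with at most 1 mismatch was added after the sequences had been seen. Capitals mark matches.
Bdkrb2, chr12:105562922-105563221, forward strand: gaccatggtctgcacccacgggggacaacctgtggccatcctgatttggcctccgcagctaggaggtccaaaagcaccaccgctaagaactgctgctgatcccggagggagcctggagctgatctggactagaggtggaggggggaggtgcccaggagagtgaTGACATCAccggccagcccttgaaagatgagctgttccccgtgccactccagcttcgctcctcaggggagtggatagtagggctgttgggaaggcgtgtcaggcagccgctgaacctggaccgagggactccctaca
Npr3, chr15:11907322-11907621, reverse strand: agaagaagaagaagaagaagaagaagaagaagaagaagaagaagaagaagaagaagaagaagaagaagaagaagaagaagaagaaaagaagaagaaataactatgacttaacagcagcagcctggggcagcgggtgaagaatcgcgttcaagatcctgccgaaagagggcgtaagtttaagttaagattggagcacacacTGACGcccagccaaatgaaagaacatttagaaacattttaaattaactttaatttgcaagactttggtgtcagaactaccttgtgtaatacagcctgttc
Ednra, chr8:77724403-77724702, reverse strand: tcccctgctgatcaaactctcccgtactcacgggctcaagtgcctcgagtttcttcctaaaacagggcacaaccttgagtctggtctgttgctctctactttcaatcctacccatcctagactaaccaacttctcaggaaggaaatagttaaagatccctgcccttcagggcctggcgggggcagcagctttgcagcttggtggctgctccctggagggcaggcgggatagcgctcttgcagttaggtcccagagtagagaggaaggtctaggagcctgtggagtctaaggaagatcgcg
The Bdkrb2 window held no full element, core or AP-1 site and 1 match with a mismatch, TGACATCA, at position -87 from the start. The Npr3 window held 1 core, at position -50, and the Ednra window held none of the motifs. The Ednrb window, not printed, also held 1 core, at position -203 from the start, in a gene that was barely detected and not higher after CGRP. Of all 32851 promoter windows in the table, 1.79% held the full element, 20.8% the core, 7.81% the AP-1 site and 12.5% the full element with at most 1 mismatch. A match describes the letters of the window and not binding.

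The endothelin receptors showed no called change. Ednra, the endothelin A receptor that mediates constriction by endothelin, stood at 43.7, 56.2, 26.7 and 34.0 CPM after PBS and 18.3, 35.2, 48.6 and 29.7 CPM after CGRP at 4 h. At 8 h it stood at 38.8, 45.5, 37.2 and 53.2 CPM after PBS and 40.6, 35.8, 32.4 and 32.7 CPM after CGRP. The groups overlapped at both times, and the log2 fold changes were -0.29 ± 0.25 at 4 h and -0.30 ± 0.25 at 8 h (adjusted p = 0.531 at 8 h). These errors leave room for differences of the size measured for Agtr1a. Ednrb, the endothelin B receptor, which is prominent in endothelium and glia, was barely detected, with 9 counts over the PBS and 6 over the CGRP libraries at 4 h and 3 over the PBS libraries at 8 h. It had 0 counts over the CGRP 8 h libraries, which allows a level of up to 0.0847 CPM (3 counts over the group, counting error only).

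**Figure D3:**
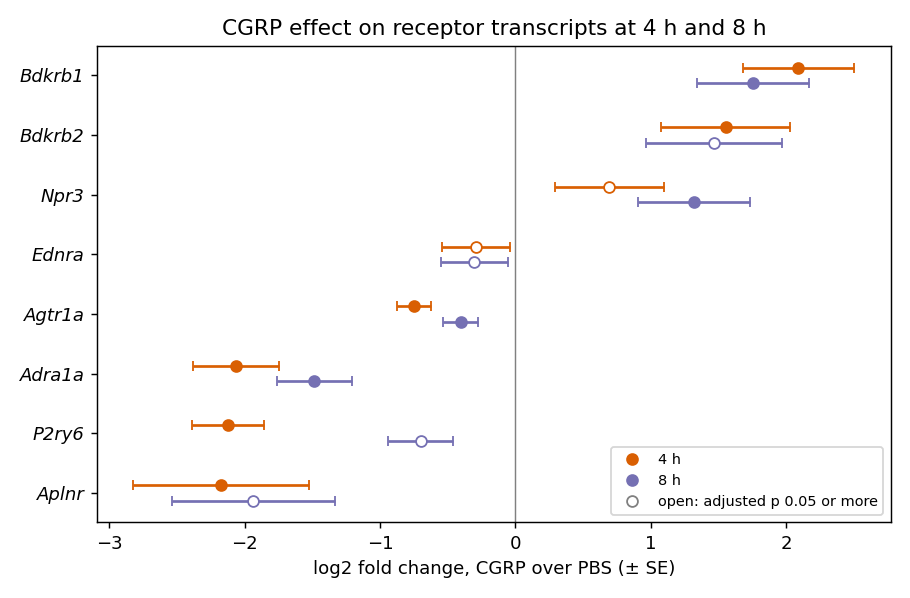
Log2 fold change of CGRP over PBS with its SE for the 8 tested receptors at 4 h and 8 h; filled points had an adjusted p under 0.05 over all genes and open points did not. Each receptor has the same sign at both times, from -2.18 (Aplnr) to 2.09 (Bdkrb1) at 4 h.

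Genes whose log2 CPM over the 16 libraries was most like that of a receptor were sought in 9831 candidates whose mean reached 5 CPM. For Adra1a they were Pik3r1, Evc and Fat4, with a Pearson r of 0.93 each, and for P2ry6 Capn6, Cdk8 and Pgrmc1 (0.95 each). For Bdkrb1 they were Uck2, Eef1e1 and Nop2 (0.94 to 0.95), and for Bdkrb2 Dph1, Trim13 and Orc2 (0.89 to 0.90). Agtr1a was most like Glt8d1, Cercam and Aga (0.92 to 0.93), Aplnr most like Pygm, Olfml3 and Fam78a (0.90 each), Npr3 most like Dbn1, Ranbp3 and Ppdpf (0.81 to 0.85) and Ednra most like Cxcl12, Plekhh2 and Ptger4 (0.79 to 0.82). The values describe likeness over libraries that share their groups and carry no test.

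The wider peptide and nucleotide receptor families were then counted, leaving the receptors described above aside. These lists and those that follow were chosen with earlier results of these data known, so their counts are a description. Of 14 other peptide receptor genes, 2 rose and 3 fell at 4 h and 1 rose and 2 fell at 8 h, where 16.2% of all tested genes were called at 4 h and 8.67% at 8 h. The median log2 fold change of these 14 was -0.22 at 4 h and -0.12 at 8 h, against -0.00 and -0.02 for all tested genes.

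The CGRP receptor chain Calcrl rose at 4 h (0.71 ± 0.12, adjusted p = 2.55e-04). Ramp1, the chain that joins Calcrl in the CGRP receptor, was not among the genes called at 4 h or 8 h. Ramp3, which joins Calcrl in an adrenomedullin receptor, rose from 0.156 to 3.28 CPM at 4 h (adjusted p = 5.24e-04). At 8 h Ramp3 rose from 0.135 to 1.13 CPM (adjusted p = 0.0335, lost without any 1 PBS 8 h library or CGRP 8 h replicate 2, 3 or 4). Npr2, the receptor of C-type natriuretic peptide, fell at 4 h (-0.70 ± 0.12, adjusted p = 4.39e-04) and at 8 h (-0.41 ± 0.12, adjusted p = 0.0360). Its 8 h call was lost without CGRP 8 h replicate 1 or 4 or PBS 8 h replicate 1, 3 or 4 (adjusted p = 0.0699 to 0.139) and with no filter (0.0613). Chosen after their values were seen, the other falls were those of the neuropeptide Y receptor Npy1r (-2.47 ± 0.66, adjusted p = 0.0138; 0.0533 without CGRP 4 h replicate 4) and the PACAP receptor Adcyap1r1 (-0.75 ± 0.17, adjusted p = 0.00356) at 4 h, and of the vasopressin receptor Avpr1a at 8 h (-1.31 ± 0.28, adjusted p = 0.00521). Of 10 nucleotide and adenosine receptors beside P2ry6, 2 rose and 1 fell at 4 h (16.2% of all tested genes called) and 0 were called at 8 h by edgeR (8.67%). The adenosine receptor Adora2b (0.68 ± 0.20, adjusted p = 0.0256) and the ATP-gated channel P2rx3 (1.29 ± 0.43, adjusted p = 0.0436) rose, and the UDP-sugar receptor P2ry14 fell (-0.50 ± 0.17, adjusted p = 0.0458). These last 3 calls were each lost when 1 of several libraries was left out, 4, 6 and 12 of 16 libraries in that order.

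Genes that make or break down the ligands moved in both directions. Of 12 genes tested from a list of ligand precursors, 5 rose and 1 fell at 4 h, against 7.84% and 8.37% of all tested genes, and 3 rose and 0 fell at 8 h, against 5.00% and 3.67%. The list was chosen with earlier results known, so nothing is read from these shares. Nppc, which encodes C-type natriuretic peptide, a ligand of Npr2 that Npr3 clears, rose from 2.34 ± 0.683 to 13.4 ± 5.11 CPM at 4 h (2.52 ± 0.39, adjusted p = 1.39e-04). At 8 h it stood at 3.19 ± 1.88 and 4.49 ± 1.93 CPM and was not called. The CGRP genes Calca and Calcb and the galanin gene Gal rose at both times from levels near 0: Gal stood at 0.936 CPM after PBS and 87.0 after CGRP at 4 h and at 0.101 and 24.3 CPM at 8 h. Calcb stood at 0.0323 and 6.92 CPM at 4 h and at 0.299 and 1.49 CPM at 8 h, and Calca at 0.0521 and 2.07 CPM at 4 h and at 0 and 3.12 CPM at 8 h. The 8 h call of Calcb (adjusted p = 0.0443) was lost when any 1 of 10 libraries was left out. Adm and Ren1 were also called at 4 h and not at 8 h. Ren1, counted in this list, encodes the enzyme renin and not a ligand precursor. The tested precursors of angiotensin, kinin, endothelin and apelin themselves were not called at either time. At 8 h, after PBS and CGRP in that order, Agt stood at 16.3 and 12.1 CPM, Kng2 at 1.31 and 2.16 CPM, Edn1 at 16.3 and 7.97 CPM and Apln at 1.10 and 1.11 CPM.

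Of 18 peptidases and processing enzymes, 2 rose and 1 fell at 4 h, a share near the 16.2% of all tested genes, and 5 rose and 3 fell at 8 h, against 8.67%. Several of them act on kinins. Thop1, an oligopeptidase that cleaves bradykinin among other peptides, rose at 4 h (1.05 ± 0.17, adjusted p = 3.34e-04) and at 8 h (0.58 ± 0.17, adjusted p = 0.0409, lost without any 1 of CGRP 8 h replicates 1 or 4, PBS 8 h replicates 1, 2 or 3 or PBS 4 h replicate 1). Xpnpep2, an aminopeptidase that inactivates bradykinin, fell at 8 h (-0.78 ± 0.13, adjusted p = 9.06e-04). Cpm, the carboxypeptidase that turns kinins into B1 ligands, stood at 0.369 CPM after PBS and 3.32 CPM after CGRP at 8 h and rose (adjusted p = 0.00567), and at 4 h it stood at 2.79 and 2.16 CPM. The aminopeptidase Anpep fell at 4 h (-0.61 ± 0.13, adjusted p = 0.00255). The angiotensin-converting enzyme Ace, an abundant transcript at 544 and 535 CPM at 4 h, was not called at either time.

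Among 16 genes of amine and nucleotide handling, 3 rose and 4 fell at 4 h, against 16.2% of all tested genes, and 3 rose and 2 fell at 8 h, against 8.67%. Slc6a2, the transporter that takes up noradrenaline, stood at 24.1 ± 4.32 CPM after PBS and 44.9 ± 7.40 CPM after CGRP at 4 h, and at 18.4 ± 4.71 and 53.4 ± 3.43 CPM at 8 h. It rose at both times (0.90 ± 0.16, adjusted p = 5.01e-04, and 1.54 ± 0.16, adjusted p = 5.32e-06), with every single library left out as well. Adra1a, whose receptor binds the same amine, was lower in both comparisons. Entpd1, an ectoenzyme that breaks down extracellular ATP and other nucleotides, fell at 8 h (-0.82 ± 0.11, adjusted p = 8.22e-05). It was also the 1 gene of this list called higher at 8 h than at 4 h after PBS, against 0.516% of all tested genes called. Adenosine kinase (Adk) fell (-0.77 ± 0.10, adjusted p = 2.88e-05) and Panx1, a channel that releases ATP, rose (1.45 ± 0.25, adjusted p = 3.44e-04) at 4 h.

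Downstream of the receptors, 1 of 24 Gq and calcium genes rose and 4 fell at 4 h, and 0 rose and 2 fell at 8 h, shares near those of all tested genes (16.2% and 8.67%). At 4 h the kinase gene Prkca rose (0.90 ± 0.13), and the phospholipase Plcb4 (-0.89 ± 0.15) and the calcium release channels Itpr2 (-0.55 ± 0.12) and Itpr3 (-1.06 ± 0.27) fell. The Itpr3 call was lost without the 4 libraries with many genes detected (-0.99, adjusted p = 0.0684). Itpr2 also fell at 8 h (-0.44 ± 0.12, adjusted p = 0.0212), a call lost without CGRP 8 h replicate 1 or 4 or PBS 8 h replicate 3 or 4 (adjusted p = 0.0604 to 0.0959). Of 14 desensitisation genes, 2 rose and 3 fell at 4 h and 2 rose at 8 h, against the same 16.2% and 8.67%. The receptor kinase Grk5 rose at 4 h (0.96 ± 0.15) and at 8 h (0.60 ± 0.15, adjusted p = 0.0182, and 0.0522 without PBS 8 h replicate 3), Rgs19 rose at 8 h (0.71 ± 0.12), and Rgs10 (-0.81 ± 0.16) and the arrestin gene Arrb1 (-0.48 ± 0.12) fell at 4 h. Of 14 genes of nitric oxide and cyclic GMP signalling, 1 rose and 3 fell at 4 h and 1 rose and 2 fell at 8 h, again against 16.2% and 8.67%. Pde1a, a phosphodiesterase activated by calcium, rose at 4 h (0.93 ± 0.13) and at 8 h (0.50 ± 0.13, adjusted p = 0.0200, lost without CGRP 8 h replicate 4 or PBS 8 h replicate 1 or 3). It was also the 1 gene of this list called lower at 8 h than at 4 h after PBS. Ddah2, which degrades inhibitors of nitric oxide synthesis, fell at 4 h (-0.61 ± 0.09). The guanylate cyclase subunit Gucy1a2 fell at 8 h (-1.28 ± 0.38, adjusted p = 0.0359), a call lost without any 1 CGRP 8 h library or PBS 8 h replicate 1, 3 or 4.

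**Figure D4:**
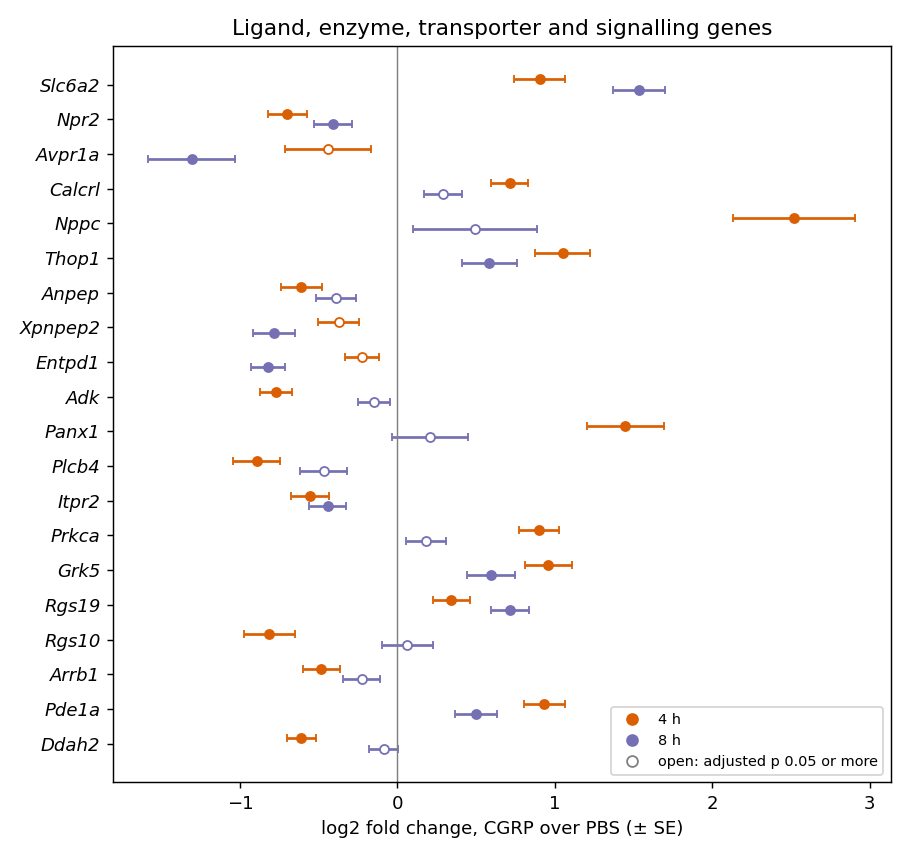
Log2 fold change of CGRP over PBS with its SE at 4 h and 8 h for genes of receptors, ligands, enzymes, transport and signalling that are named in the text; filled points had an adjusted p under 0.05 over all genes. Slc6a2 is higher and Npr2 lower at both times.

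Without PBS 8 h replicates 1, 2 and 3, which leaves 1 PBS library at 8 h, the calls at 8 h of Slc6a2 and Entpd1 held, and those of the other genes named outside the receptor group were lost. Several log2 fold changes stayed about as large, such as those of Npr2 (-0.48), Grk5 (0.60) and Rgs19 (0.75), and those of Cpm (1.82), Thop1 (0.32), Xpnpep2 (-0.54) and Pde1a (0.31) were smaller. Without the 4 libraries with many genes detected, the 8 h calls of Slc6a2, Entpd1, Xpnpep2, Cpm and Rgs19 held and those of the others were lost, as were the 4 h calls of Npy1r and P2ry14.

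Among PBS mice alone, the receptors were compared between 8 h and 4 h, which share no injected peptide. EdgeR called 0 of 8, against 0.516% of all tested genes. DESeq2 called 1, Adra1a, among 321 genes in all. The libraries of 2 of 8 receptors did not overlap, against 7.52% of all tested genes. After CGRP the fit called 2 of 8 between the times, Adra1a and P2ry6, both higher at 8 h and both known for low values at 4 h, so nothing is read from this count against 7.26% of all tested genes in either direction and 4.20% higher, and 2 of 8 did not overlap, against 12.4%.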

How the data were processed

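The authors deposited raw read counts per gene symbol. Per the submitters' processing notes, reads were aligned to mm10 with STAR 2.5.4 and counted with featureCounts. The annotation, strand setting and treatment of multi-mapped reads are not stated there. Per the labels' protocols, polyadenylated RNA of double-sorted cells was amplified and made into Nextera XT libraries, which do not mark strand, so antisense overlaps cannot be told apart (Ednra, P2ry6 and Npr3 each overlap an opposite-strand model in GENCODE M21).

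Counts were fitted with edgeR 4.0.16 in R 4.3.3: filterByExpr (13949 of 52997 symbols), TMM, 1 mean per group over 16 libraries, robust quasi-likelihood, two-sided tests, Benjamini-Hochberg adjustment over all genes, calls at adjusted p under 0.05. The fit was tested on simulated data. DESeq2 1.42.0, other scalings, no filter, a replicate block and left-out libraries were the alternatives. P-values measure the spread between libraries, which may be partly technical. Reads are PCR copies without molecular identifiers. Over 24 replicate pairs, chi-square per degree of freedom was 6.52 to 22.7, so no pair was 1 library sequenced again. Libraries amplified separately from the same cells cannot be told apart this way. Members and lists were chosen with earlier results of these data known. From each wider list up to 4 called genes with the smallest p at either time are named. The other amine receptors are not reported here.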

Additional observations from a re-analysis of the deposited data

Results flagged for a closer look

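In 35 sets of 4 libraries with any spread (9 receptors, 4 groups), 3 held a library far from the others by Dixon's ratio of the gap to the range, where chance alone marks about 1 in 20. Agtr1a in the PBS 8 h group had a ratio of 0.931, with replicate 3 at 87.5 CPM and the others at 101 to 103 CPM. Ednrb had a ratio of 0.909 in the CGRP 4 h group, where replicate 1 held 0 counts and the others 2 each. In the PBS 8 h group Ednrb had a ratio of 1, with 3 counts in replicate 1 and 0 in the others. The Ednrb values are a few reads and show no more than that.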

How the results depend on the processing

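Over all genes, 2262 were called at 4 h, 1210 at 8 h, 156 for the difference between times, 72 between times in PBS mice and 1012 between times in CGRP mice. With 1 library left out in turn, the genes called ranged from 1481 to 2245 at 4 h, 577 to 1297 at 8 h, 80 to 196 for the difference, 17 to 280 between times in PBS mice and 666 to 1014 in CGRP mice. The receptors called then ranged from 4 to 6 at 4 h, 2 to 6 at 8 h, 0 to 1 for the difference, 0 to 1 between times in PBS mice, and were 2 throughout in CGRP mice. With no filter, the difference had 456 genes and 1 receptor (P2ry6) and time in PBS mice 422 genes and 1 receptor (Adra1a). With DESeq2 these were 425 and 1, and 321 and 1. Upper-quartile scaling gave 1 receptor for the difference. Without the 4 libraries with the most genes detected, 191 genes and 0 receptors were called at 8 h and 63 genes for the difference. Without PBS 8 h replicates 1, 2 and 3, an alternative chosen after seeing the data in which the 1 PBS library left at 8 h is assumed to vary like the others, 146 genes and 0 receptors were called at 8 h, 53 genes for the difference and 20 for time in PBS mice. Fewer libraries are part of how these alternatives are built, and other causes were not tested. No log2 fold change given for a receptor or a called gene of the wider lists changed sign under any alternative run. Same-numbered libraries of the PBS and CGRP groups did not deviate together over the tested genes (r from -0.06 to 0.04 over 8 pairs, and from -0.05 to 0.06 in other pairs). These values show no pairing by number, but a weak shared effect, or one on few genes, could go unseen. With the replicate number as a block, 2167 genes and 6 receptors were called at 4 h and 1100 genes and 4 receptors at 8 h. The 4 receptors were not the same genes: Aplnr was called (-2.23, adjusted p = 0.0236) and Npr3 was not (1.33, adjusted p = 0.0533). The block also ended the calls at 8 h of Npr2 (adjusted p = 0.0559), Ramp3 (0.0540) and Gucy1a2 (0.0603), and at 4 h of P2rx3 (0.0833), P2ry14 (0.0597) and Rgs19 (0.0711). Other settings that changed a call were no filter (P2ry6 at 8 h 0.0130, Bdkrb2 at 8 h 2.08e-04 and Gucy1a2 at 8 h 0.0747), upper-quartile scaling (Thop1 at 8 h 0.0540) and fits on the 8 libraries of 1 time (Thop1 at 8 h 0.0694 and P2rx3 at 4 h 0.0677), all as adjusted p. Ednrb, with 0 to 4 reads per library, could not be compared at this depth.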
